A study of Mus musculus with 4 samples.

Results

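The 26S proteasome is the enzyme complex that degrades ubiquitin-tagged proteins, and its genes were followed here in mouse engineered muscle. Its members were the probes whose gene name on the array starts with Psm, then a letter from a to g, then a number. With the brightest probe kept for each name, 49 gene names out of 31829 on the array were found, covered by 61 probes and 70 spots. One of them, Psmc3ip, shares the prefix but encodes a meiotic recombination factor and no proteasome subunit, so 48 are proteasome genes. In all, 46 of the 49 were measured, that is, well above background on all 4 arrays, and the 3 others (Psma8, Psmb9 and Psmb11) were well above background on none.

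RNA came from 3D engineered muscle, in which mouse muscle tissue is grown in a dish. The 4 groups were tissue taken 0 min after 30 min of acute EPS (electrical pulse stimulation, used to make cultured muscle contract), tissue at 0 min with no acute EPS, tissue taken 5 h after 30 min of EPS, and tissue at 5 h with no EPS. Each group had 1 array, all on 1 slide, so no difference has a replicate check and no test between groups was possible. The labels give no genotype, cell line or age and do not say how many tissues each RNA sample came from.

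Proteasomes consist of a barrel-shaped core, the 20S particle, and caps that feed it. The core stacks alpha rings, which gate the entrance, on beta rings, which hold the proteolytic sites. The 19S cap has a base, with a ring of ATPases that unfold substrates, and a lid, which removes the ubiquitin chain. Other caps, the PA28 and PA200 activators, open the core without ATP, and dedicated chaperones assemble the particle without being part of it. When cells respond to interferon, inducible beta subunits replace the catalytic ones and give the immunoproteasome. In skeletal muscle the ubiquitin-proteasome system is known for breaking down contractile proteins during disuse and wasting, and proteasome genes are known to be induced together when proteasome capacity falls short.

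All values for most members rest on 1 probe of 60 bases. The probes of the members with the largest differences between times are printed here, because their values carry the main results. Psmd11 encodes a lid subunit that holds lid, base and core together, Psmd14 the lid's deubiquitinase and Psmd5 a chaperone of the base. On build mm9, as the array files give it, the Psmd11 probe spans chr11:80283406-80283920 on the plus strand, the Psmd14 probe chr2:61599058-61599117 on the plus strand and the Psmd5 probe chr2:34708108-34708167 on the minus strand. The Psmd11 stretch is longer than the probe itself. They are in lower case, with no base singled out.
Psmd11: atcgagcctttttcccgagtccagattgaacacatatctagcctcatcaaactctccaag
Psmd14: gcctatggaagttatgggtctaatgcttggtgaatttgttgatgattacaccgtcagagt
Psmd5: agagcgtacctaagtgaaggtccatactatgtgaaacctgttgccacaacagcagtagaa

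Psmb8 encodes the inducible beta subunit that takes the place of the constitutive catalytic subunit encoded by Psmb5, and the 2 genes are related in sequence. The Psmb8 probe lies at chr17:34337771-34337830 on the plus strand, and the dimmer Psmb5 probe at chr14:55233161-55233220 on the minus strand (mm9). The capitals mark bases that match when the overlapping stretches are aligned without gaps, 31 of 50 aligned bases.
Psmb8: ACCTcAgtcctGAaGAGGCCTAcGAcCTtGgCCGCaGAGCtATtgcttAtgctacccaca
Psmb5: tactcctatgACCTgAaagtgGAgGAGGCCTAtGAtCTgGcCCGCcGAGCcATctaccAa

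A level is the log2 of a probe's processed signal minus the log2 of its array's 75th percentile of signal, so 0 is the 75th percentile, and differences are differences of levels. Of the 43020 non-control spots on each array, 26371 to 26736 were well above background and none was saturated. Among 399 probes printed 10 times on each array, the median standard deviation of a difference between single spots was 0.08 on the log2 scale in each comparison. For those with a level above 0 the 95th percentile lay between 0.10 and 0.12. This covers the spots of 1 RNA sample, not the spread between tissues. In place of a test, a difference of at least 1.3-fold (0.38 on the log2 scale) is counted as higher or lower. The skeletal muscle label held on the arrays: all 7 muscle markers on the array, among them Acta1, Myh3 and Myog, were measured on all 4 arrays. All 7 fibroblast markers were measured too. Of the 6 leukocyte markers on the array, Itgam, Cd68 and Cd3e were well above background on all 4 arrays, with levels of Itgam between 2.52 and 2.93, Emr1 was so on 2 arrays, Cd79a on 1 and the general leukocyte marker Ptprc on none. Whether cells of this kind contributed RNA was not tested.

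Directly after EPS no proteasome gene reached 1.3-fold in either direction. The 46 measured members ranged from -0.24 to 0.36, where 12.7% of all 18552 gene names measured on both arrays passed 1.3-fold. Their median difference was 0.11, with 37 above 0 and 9 below, against a median of 0.02 over all gene names, of which 54.5% lay above 0. Among the 4270 gene names with a mean level of at least 2, where most proteasome probes lie, the median was 0.09 and 76.9% lay above 0. The members' small shift toward higher values with EPS at 0 min was close to that of other bright probes, and with quantile normalization the members' median was 0.024.

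**Figure D1:**
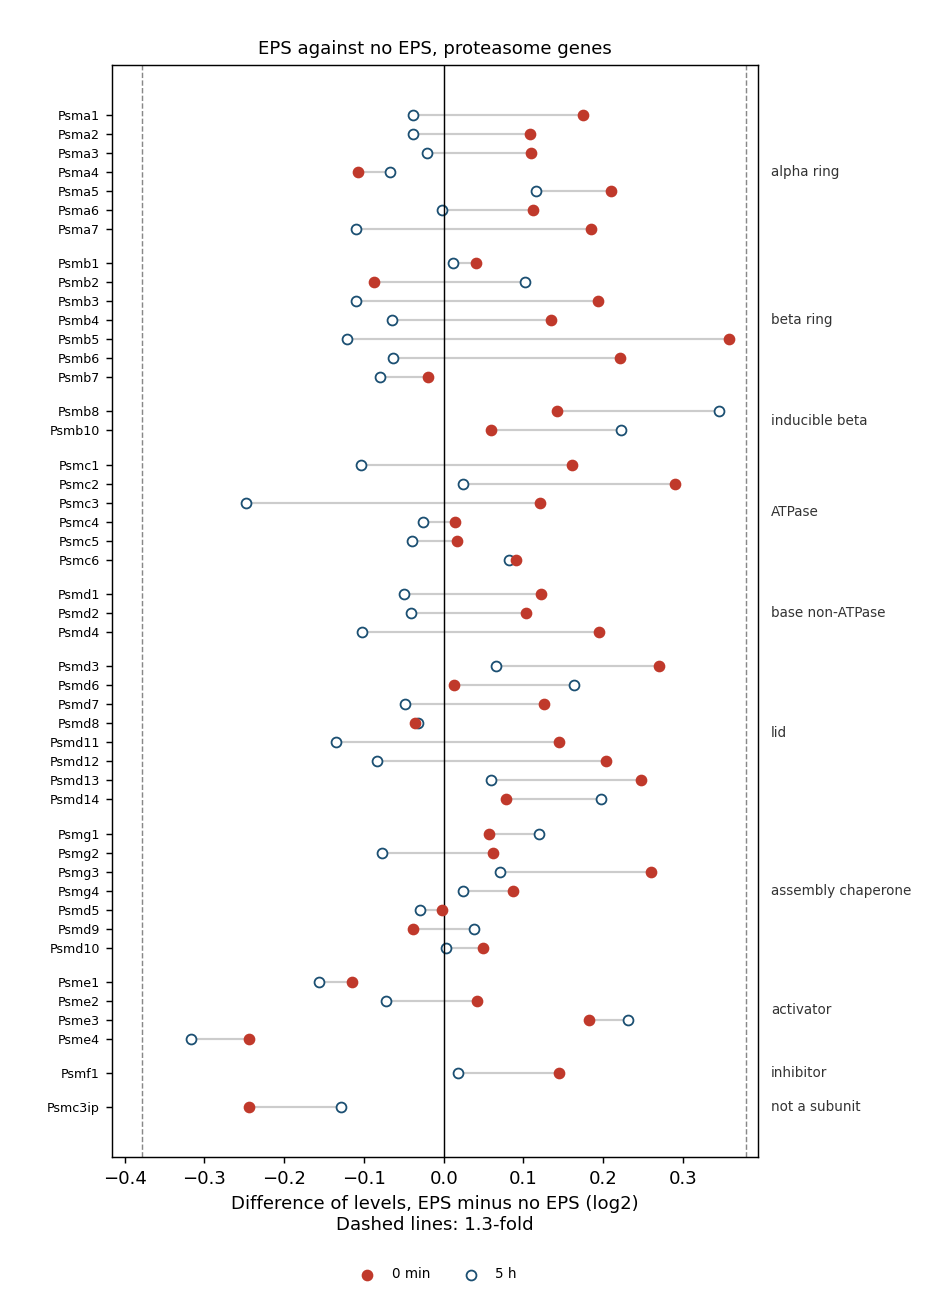
Log2 difference of levels, EPS minus no EPS, for each of the 46 measured members, grouped by role, at 0 min and at 5 h (1 array per group, no error between tissues). Every point lies inside 1.3-fold; most members lie above 0 at 0 min (37 of 46) and below 0 at 5 h (28 of 46).

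The largest positive difference at 0 min was that of Psmb5, the beta subunit with the chymotrypsin-like site. Its level was 6.22 after EPS and 5.86 without EPS, a difference of 0.36, or 1.28-fold. Psmc2, an ATPase of the base, had 5.06 after EPS and 4.77 without EPS. The lid scaffold gene Psmd3 had 4.96 after EPS and 4.69 without EPS, and the assembly chaperone gene Psmg3 had 1.78 after EPS and 1.52 without EPS. These differences, 0.26 to 0.36, exceed the spot error of bright probes but not the size rule.

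The members with several probes did not all give the same value. The second probe of Psmb5 differed by 0.07 at 0 min, that of Psmc2 by -0.00 and that of Psmd12 by -0.03, where the brightest probes differed by 0.36, 0.29 and 0.20. Both probes of Psme4, the gene of the PA200 activator, stood at -0.24. Over the 11 genes with a second measured probe, 8 had the same sign on both at 0 min, and the second probe was closer to 0 in 7.

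At 5 h EPS tissue again held no proteasome gene at 1.3-fold against unstimulated tissue of the same time. The members ranged from -0.32 to 0.35, where 13.2% of 18506 gene names passed 1.3-fold. Their median was -0.03, with 18 above 0 and 28 below, and that of all gene names was -0.03 as well, with 43.4% of them above 0. Psmc3, an ATPase of the base, had a level of 6.18 after EPS and 6.42 without EPS, a difference of -0.25, but its second probe differed by -0.04. Psmb10, the inducible counterpart of the trypsin-like beta subunit, had 2.26 after EPS and 2.04 without EPS. The highest member, at 0.35, was Psmb8, whose probe is dim, with -5.51 after EPS and -5.86 without EPS. Its difference was 0.44 with quantile normalization, past 1.3-fold, and -0.01 with normexp background correction.

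Psme4 was the member with the lowest EPS difference at both times. It had 0.09 after EPS and 0.33 without EPS at 0 min, and -0.00 after EPS and 0.32 without EPS at 5 h. Its differences were short of 1.3-fold, and at 5 h its 2 probes gave -0.32 and -0.25. Psme4 was picked for these low differences, so their shared direction is no separate result. Of all 18070 gene names measured on all arrays, 5467 lay below 0 in both EPS comparisons and 5150 above 0 in both. Psmc3ip, the member that encodes no subunit, stood at -0.24 at 0 min and -0.13 at 5 h, with dim levels between -2.43 and -2.09. Psme3, which encodes the nuclear PA28 activator, went the other way at both times: 0.26 after EPS and 0.08 without EPS at 0 min, and 0.49 after EPS and 0.26 without EPS at 5 h. The EPS comparisons at 0 min and 5 h share no array. Over the 46 members the correlation between them was r = 0.21 (Pearson) and rho = 0.05 (Spearman), against 0.28 for both over all 18070 gene names measured on all arrays.

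The PA28 subunit genes Psme1 and Psme2 are interferon-responsive. Psme1 was printed 10 times on each array, so it alone of the members has a spot error of its own. Its level was 1.44 ± 0.08 after EPS and 1.56 ± 0.06 without EPS at 0 min (SD over 10 spots), and 1.21 ± 0.07 after EPS and 1.36 ± 0.07 without EPS at 5 h. The EPS differences were -0.11 at 0 min and -0.16 at 5 h, each with a standard error between spots of 0.03. Psme2 had 3.88 after EPS and 3.84 without EPS at 0 min, and 3.80 after EPS and 3.87 without EPS at 5 h.

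The EPS differences varied with the brightness of the probe. Over all gene names the median EPS difference at 0 min was -0.05 in the band with a mean level below -2 and 0.14 in the band at or above 5. At 5 h there was no steady trend over all gene names: the median was -0.09 in the band below -2, 0.01 in the band between 0 and 2, and -0.13 in the band at or above 5. The 2 members in the band below -2, Psmb8 and Psmc3ip, had a median of 0.11 there at 5 h. Across the 46 members, a member's mean level and its difference had Pearson's r = 0.47 at 0 min and -0.40 at 5 h. These are descriptions of arrays whose probes share scan and scaling. With the median of its brightness band taken from each member, the median of the members was 0.02 at 0 min (28 above 0 and 18 below) and 0.02 at 5 h (27 above 0 and 19 below).

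**Figure D2:**
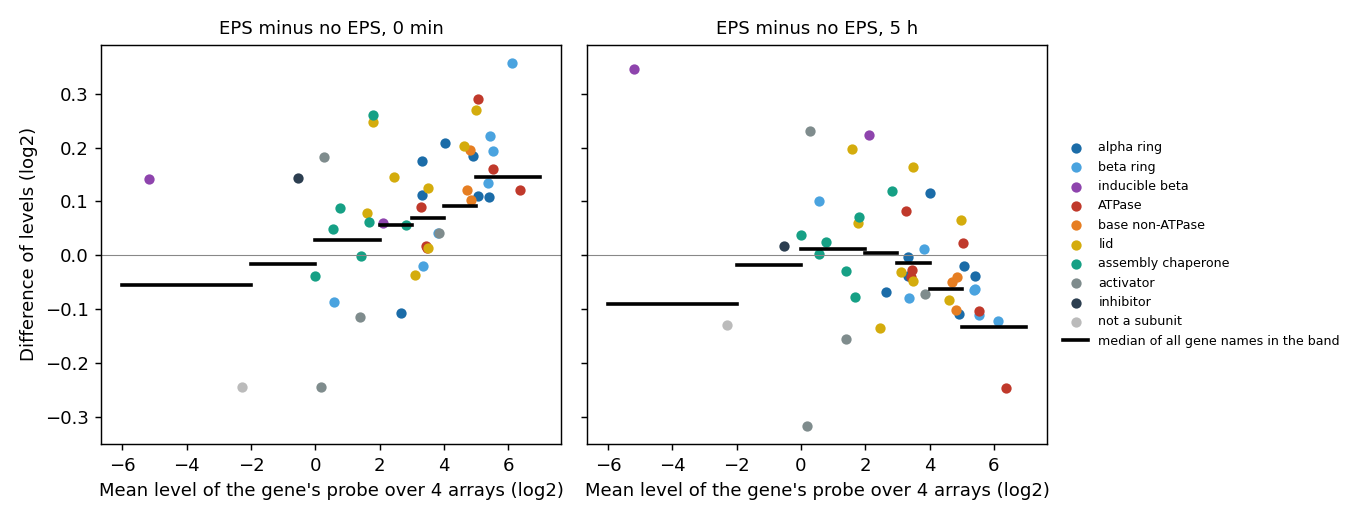
Log2 difference of levels, EPS minus no EPS, against each member's mean level over the 4 arrays, at 0 min and 5 h, with black bars for the median of all gene names in each band of level (the outer bands are open-ended). The band medians run upward with level at 0 min, to 0.14 at 5 and above, and stand at -0.13 there at 5 h, and the members lie around them.

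Genes of other large complexes were compared with the proteasome genes. The 46 proteasome genes had a median EPS difference of 0.11 at 0 min, against 0.17 for 81 measured ribosomal protein genes and 0.12 for 36 genes of respiratory complex I. At 5 h the medians were -0.03 for the proteasome genes, -0.13 for the ribosomal protein genes and -0.11 for complex I, with 39.1%, 8.6% and 8.3% of the genes above 0. Whether the sets differ was not tested. Within the proteasome at 0 min, the medians by role were 0.11 for alpha subunits, 0.13 for constitutive beta subunits, 0.11 for ATPases and 0.06 for assembly chaperones. Of the 17 genes of the 19S cap 94.1% lay above 0 at 0 min. So did 98.8% of the ribosomal protein genes, 94.4% of the complex I genes and 76.9% of gene names with a mean level of at least 2.

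The difference between the EPS effects, 5 h minus 0 min, had a median of -0.11 over the members, with 11 above 0 and 35 below, where 58.2% of all gene names lay below 0. Only Psmb5 was past 1.3-fold, with -0.48, where 10% of 18070 gene names were at least 1.3-fold lower in this measure. It was -0.20 with quantile normalization, -0.27 with cyclic loess, -0.31 with the mean of its probes and -0.15 on its second probe, all short of 1.3-fold. With normexp background correction (-0.45) and with median scaling it stayed past 1.3-fold. Across members, level and this difference had Pearson's r = -0.69, and with the band medians removed the median was -0.00, with 23 members on either side of 0.

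Time separated the proteasome genes further than EPS did. After EPS, 4 of 46 members were at least 1.3-fold higher at 5 h than at 0 min, where 15.3% of 18435 gene names were, and only Psmb8 was at least 1.3-fold lower, where 24.1% were. The members' median after EPS was 0.12, with 36 above 0 and 10 below. It was -0.08 over all gene names, with 42.5% above 0, and -0.08 over gene names with a mean level of at least 2, with 40.5% above 0 and 10.8% at least 1.3-fold higher. Without EPS, 11 members were at least 1.3-fold higher at 5 h than at 0 min, where 13.4% of 18446 gene names were, and again only Psmb8 was lower, where 18% were. With quantile normalization 4 were higher and 1 lower without EPS, and with median scaling 21 were higher and 1 lower. The members' median without EPS was 0.22, with 39 above 0 and 7 below. Over all gene names it was -0.02, with 47.5% above 0, and over gene names with a mean level of at least 2 it was 0.06, with 60.9% above 0 and 12.4% at least 1.3-fold higher. The 4 members counted after EPS are thus a share no larger than that of all gene names, while in both comparisons the members' median lay above that of bright gene names.

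**Figure D3:**
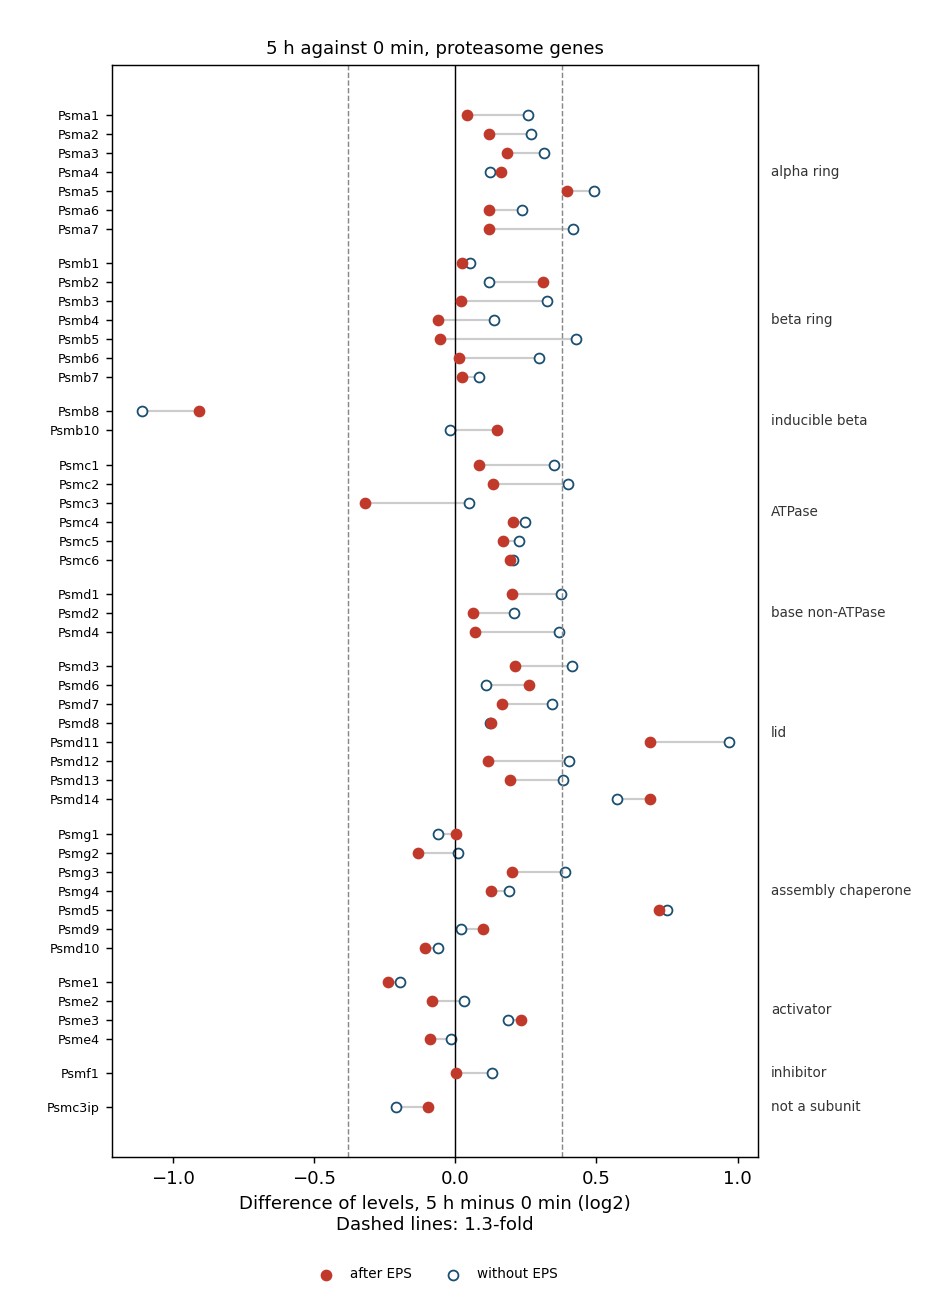
Log2 difference of levels, 5 h minus 0 min, for each of the 46 measured members, grouped by role, after EPS and without EPS (1 array per group, no error between tissues). Psmd11, Psmd5, Psmd14 and Psma5 lie past 1.3-fold upward in both, and Psmb8 past it downward in both. Of all 18070 gene names measured on all arrays, 1718 lay past it upward in both and 2358 downward in both.

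Among members higher at 5 h, Psmd11 had the largest difference without EPS and, with Psmd14 and Psmd5, one of the 3 largest after EPS. Its level at 5 h was 2.79 after EPS and 2.93 without EPS, against 2.10 after EPS and 1.96 without EPS at 0 min. It was thus 1.61-fold higher at 5 h after EPS and 1.96-fold higher without EPS. Both 5 h arrays lay above both 0 min arrays, but Psmd11 was picked for its large differences in both comparisons, so this is no separate result. In worm and in human embryonic stem cells its counterpart is known to raise proteasome assembly and activity.

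Psmd14 encodes the metalloprotease that cuts ubiquitin chains from substrates as they enter. Its level at 5 h was 2.01 after EPS and 1.81 without EPS, against 1.32 after EPS and 1.24 without EPS at 0 min. The differences were 0.69 after EPS and 0.57 without EPS. The lid scaffold genes Psmd3, Psmd12 and Psmd13 had 0.21, 0.12 and 0.19 after EPS, and 0.41, 0.40 and 0.38, past 1.3-fold, without EPS. The second probe of Psmd12, which is dimmer, had 0.02 after EPS and 0.22 without EPS, short of 1.3-fold.

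Among the 7 measured assembly chaperone genes, Psmd5 was past 1.3-fold in both time comparisons. At 5 h its level was 1.76 after EPS and 1.79 without EPS, against 1.04 both after EPS and without EPS at 0 min. The differences were 0.72 after EPS and 0.75 without EPS, or 1.65-fold and 1.68-fold. Psmg3 had 0.20 after EPS and 0.39 without EPS. The other 5 chaperone genes lay between -0.13 and 0.19 in both time comparisons. Psmg1 and Psmg2 encode partners that start the alpha ring. Psmg1 had 2.88 after EPS and 2.76 without EPS at 5 h, against 2.87 after EPS and 2.82 without EPS at 0 min, and Psmg2 had 1.60 after EPS and 1.68 without EPS at 5 h, against 1.73 after EPS and 1.67 without EPS at 0 min. Psmg4, the partner of Psmg3, had 0.87 after EPS and 0.84 without EPS at 5 h, against 0.74 after EPS and 0.65 without EPS at 0 min. The base chaperone gene Psmd9 had 0.04 after EPS and -0.00 without EPS at 5 h, against -0.06 after EPS and -0.02 without EPS at 0 min. Psmd10, which encodes the base chaperone gankyrin, had 0.53 after EPS and 0.52 without EPS at 5 h, against 0.63 after EPS and 0.58 without EPS at 0 min.

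Psma5, an alpha ring gene, had a level of 4.30 after EPS and 4.18 without EPS at 5 h, against 3.90 after EPS and 3.69 without EPS at 0 min. It was 1.32-fold higher at 5 h after EPS and 1.41-fold higher without EPS. The remaining members past 1.3-fold without EPS were the alpha ring gene Psma7, Psmb5 and Psmc2, with 0.12, -0.05 and 0.13 after EPS and 0.42, 0.43 and 0.40 without EPS. The second probes of Psmb5 and Psmc2, with 0.15 and 0.19 after EPS and 0.30 and 0.27 without EPS, were closer together across the 2 comparisons than the brightest ones.

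**Figure D4:**
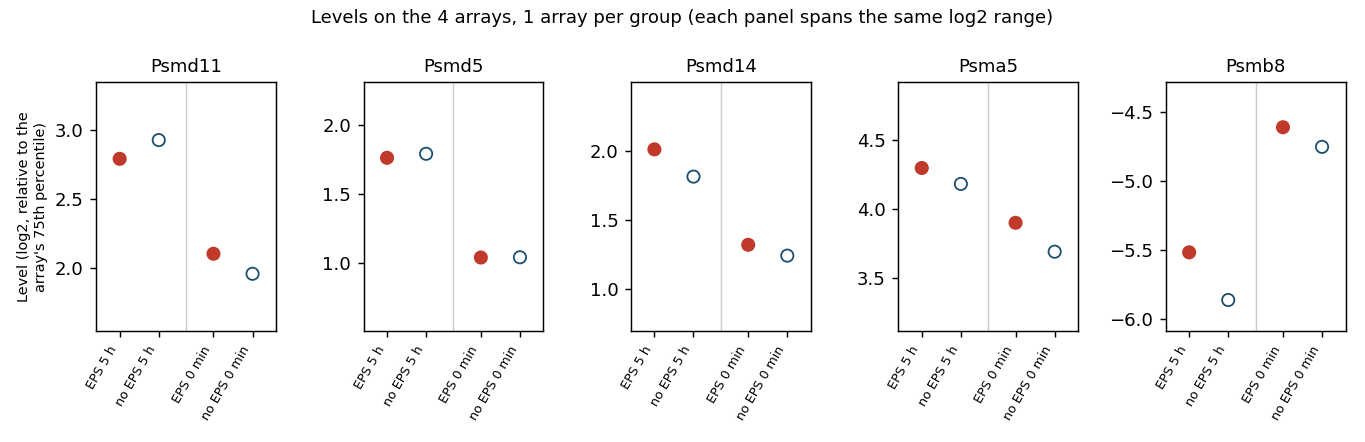
Levels of Psmd11, Psmd5, Psmd14, Psma5 and Psmb8 on the 4 arrays, log2 relative to the array's 75th percentile, with filled circles for EPS and open circles for no EPS and 5 h left of 0 min. In the first 4 genes both 5 h arrays lie above both 0 min arrays, and in Psmb8 both lie below. All of these genes were picked for being past 1.3-fold in both time comparisons, so this separation is no separate result. No share over all gene names is given for it.

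Values above 0 were spread over the whole particle. After EPS, 12 of 14 constitutive core genes lay above 0 (median 0.08, 1 past 1.3-fold), and without EPS all 14 did (median 0.26, 3 past 1.3-fold). Of the 17 genes of the 19S cap, 16 lay above 0 after EPS (median 0.17, 2 past 1.3-fold) and all 17 without EPS (median 0.35, 6 past 1.3-fold). Over all gene names 15.3% were at least 1.3-fold higher after EPS and 13.4% without EPS, so the counts past 1.3-fold after EPS in core and cap are below the share of all gene names. Above 0 lay 42.5% of all gene names after EPS and 47.5% without EPS. Of gene names with a mean level of at least 2, 40.5% and 60.9% did. The lid genes had the highest median of the roles with over 3 members, 0.20 after EPS and 0.39 without EPS, and all 8 lay above 0 in both. The ATPases had 0.15 after EPS and 0.24 without EPS. The single cap gene below 0 after EPS was Psmc3, at -0.32, with 0.05 without EPS. The second probe of Psmc3 had -0.09 after EPS and -0.03 without EPS.

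The constitutive beta subunits had the lowest median of the core and cap roles in both comparisons, 0.02 after EPS and 0.14 without EPS. Psmb5 had a level of 6.17 after EPS and 6.29 without EPS at 5 h, against 6.22 after EPS and 5.86 without EPS at 0 min. Psmb6, with the caspase-like site, had 5.46 after EPS and 5.53 without EPS at 5 h, against 5.45 after EPS and 5.23 without EPS at 0 min. In both genes the unstimulated 0 min array was the lowest, and the other 3 arrays lay close together. Psmb7, with the trypsin-like site, had 3.34 after EPS and 3.42 without EPS at 5 h, against 3.32 after EPS and 3.34 without EPS at 0 min. The non-catalytic Psmb1 to Psmb4 lay between -0.06 (Psmb4) and 0.31 (Psmb2) after EPS and between 0.05 (Psmb1) and 0.32 (Psmb3) without EPS.

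The remaining alpha ring genes, Psma1, Psma2, Psma3, Psma4 and Psma6, lay between 0.04 (Psma1) and 0.18 (Psma3) after EPS and between 0.12 (Psma4) and 0.31 (Psma3) without EPS. In the base, the ATPase genes Psmc1, Psmc4, Psmc5 and Psmc6 lay between 0.08 and 0.21 after EPS and between 0.20 and 0.35 without EPS. The base scaffold genes Psmd1 and Psmd2 had 0.20 and 0.06 after EPS and 0.37 and 0.21 without EPS, and the ubiquitin receptor gene Psmd4 had 0.07 after EPS and 0.37 without EPS. The other lid genes were Psmd6, with 0.26 after EPS and 0.11 without EPS, Psmd7, with 0.17 after EPS and 0.34 without EPS, and Psmd8, with 0.13 after EPS and 0.12 without EPS. All of these genes lay above 0 in both comparisons.

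**Figure D5:**
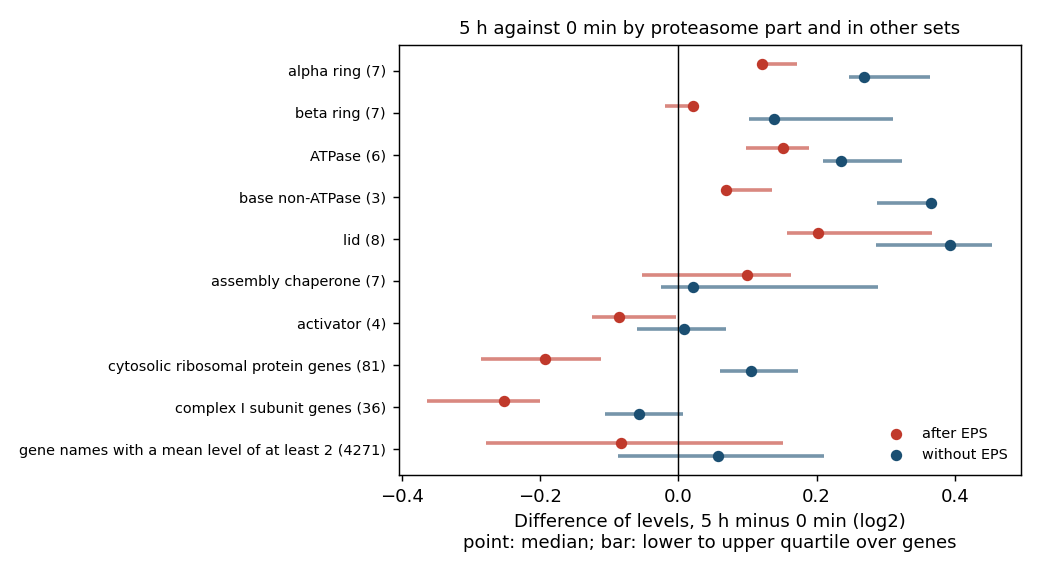
Median log2 difference, 5 h minus 0 min, for each role group of proteasome genes and for 3 other sets (number of genes in brackets), with a bar from the lower to the upper quartile over its genes, after EPS and without EPS. The lid has medians of 0.20 after EPS and 0.39 without EPS, and the activators -0.09 and 0.01.

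The 4 activator genes had a median of -0.09 after EPS and 0.01 without EPS. Psme1 differed by -0.24 after EPS and by -0.20 without EPS, each with a standard error between spots of 0.03. Psme4 had -0.09 after EPS and -0.01 without EPS, and Psme3 had 0.23 after EPS and 0.19 without EPS. Psmf1, which encodes the inhibitor protein PI31, had 0.00 after EPS and 0.13 without EPS. Whether these groups differ from the core and cap was not tested, since 1 array per group allows none.

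Of the immunoproteasome genes only Psmb8 and Psmb10 were measured. Psmb8 had a level of -5.51 after EPS and -5.86 without EPS at 5 h, against -4.61 after EPS and -4.75 without EPS at 0 min. It was 1.87-fold lower at 5 h after EPS and 2.16-fold lower without EPS, and was the only member past 2-fold, where 2.97% of gene names were at least 2-fold lower without EPS. With normexp background correction its difference without EPS was -0.37, short of 1.3-fold. Its probe was dim, and spot errors are larger at low levels: over all 270 repeated probes measured in the comparison without EPS, the 95th percentile was 0.33. Psmb10 had 2.26 after EPS and 2.04 without EPS at 5 h, against 2.11 after EPS and 2.05 without EPS at 0 min, differences of 0.15 after EPS and -0.02 without EPS. Psmb9, the third inducible subunit of the immunoproteasome, and the thymus subunit Psmb11 stayed at background on all 4 arrays, as did Psma8, the testis-specific alpha subunit.

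The 2 time comparisons share no array. Of the 46 members, 34 lay above 0 in both and 5 below 0 in both. Of all 18070 gene names measured on all arrays, 6278 lay above 0 in both and 7997 below 0 in both. Over members the correlation was r = 0.85 (Pearson) and rho = 0.61 (Spearman), against 0.78 and 0.75 over all 18070 gene names. With band medians removed the members' median was 0.18 after EPS (38 above 0 and 8 below) and 0.17 without EPS (36 above 0 and 10 below). Ribosomal protein genes had medians of -0.19 after EPS and 0.11 without EPS, and complex I genes -0.25 and -0.06. Over the 4 arrays the unstimulated 0 min array was the lowest for 30 of the 46 members, and one of the 5 h arrays the highest for 38. A member's whole range over the 4 arrays ran between 0.06 and 1.25, with a median of 0.31, and was under 1.3-fold for 33 members. No share over all gene names is given for the lowest array, the highest array or the range.

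The 4 genes at least 1.3-fold higher at 5 h in both comparisons were picked by that rule, so moving together is no separate result. Their promoters are printed here. They are the 250 bases before the annotated start from RefSeq (GRCm38.p6), 5′ to 3′ on the gene's strand, at chr11:80428365-80428614 on the plus strand for Psmd11, chr2:61711444-61711693 on the plus strand for Psmd14, chr2:34870963-34871212 on the minus strand for Psmd5 and chr3:108256676-108256925 on the plus strand for Psma5. The capitals mark a CCAAT box, which reads as its reverse complement and starts at position -159 from the start of Psmd14.
Psmd11: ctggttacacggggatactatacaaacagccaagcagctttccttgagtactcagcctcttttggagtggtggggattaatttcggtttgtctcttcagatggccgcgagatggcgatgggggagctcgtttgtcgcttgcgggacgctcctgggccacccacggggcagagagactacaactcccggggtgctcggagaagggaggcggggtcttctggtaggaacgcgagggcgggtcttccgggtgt
Psmd14: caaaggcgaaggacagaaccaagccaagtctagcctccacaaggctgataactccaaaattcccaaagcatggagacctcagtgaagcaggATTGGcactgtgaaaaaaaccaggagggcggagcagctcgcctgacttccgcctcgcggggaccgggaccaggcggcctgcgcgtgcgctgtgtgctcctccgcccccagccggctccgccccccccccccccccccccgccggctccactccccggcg
Psmd5: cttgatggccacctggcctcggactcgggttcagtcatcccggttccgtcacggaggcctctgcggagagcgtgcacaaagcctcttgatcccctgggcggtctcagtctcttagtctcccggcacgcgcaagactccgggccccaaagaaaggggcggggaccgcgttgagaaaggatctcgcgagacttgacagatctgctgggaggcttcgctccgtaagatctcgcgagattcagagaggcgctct
Psma5: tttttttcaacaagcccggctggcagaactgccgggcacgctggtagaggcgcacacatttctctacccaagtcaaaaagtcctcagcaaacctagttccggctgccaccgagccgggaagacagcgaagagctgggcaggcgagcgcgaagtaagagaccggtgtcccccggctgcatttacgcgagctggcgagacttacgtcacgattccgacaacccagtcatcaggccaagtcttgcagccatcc

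Motifs of 3 kinds were searched on both strands of such windows, and 40 of the 48 proteasome genes had one in the table. The core of the antioxidant response element, TGACNNNGC, the site of the transcription factors encoded by Nfe2l1 and Nfe2l2, was present in 12.5% of the matched proteasome genes (Psmb5, Psmb6, Psmc6, Psmd12 and Psmd9), against 11.5% of the 27025 genes in the table. A pair of heat shock factor half-sites, GAANNTTC, was present in 7.5% (Psmb5, Psmb9 and Psmf1), against 7.7% of genes. A CCAAT box, the NF-Y motif, was present in 35.0%, against 37.5% of genes. The motifs do not overlap one another in the 4 windows printed, of which only that of Psmd14 held any of the 3.

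Genes that work with the proteasome were counted by the same rule. The list covers its transcriptional regulators, ubiquitin genes, shuttle factors, further subunits and associated enzymes, and 28 of the 29 found on the array were measured. At 5 h against 0 min after EPS, 6 of 28 were at least 1.3-fold higher, with a median of 0.17. Without EPS 7 were higher, with a median of 0.26. With EPS at 0 min 2 were higher, where 5.11% of all gene names were, and none lower (median 0.10), and with EPS at 5 h none passed 1.3-fold in either direction (median -0.03).

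Sqstm1, the ubiquitin-binding autophagy receptor p62, had a level of 3.63 after EPS and 3.48 without EPS at 5 h, against 2.73 after EPS and 2.71 without EPS at 0 min. Ubqln4, a ubiquilin that shuttles tagged proteins to the proteasome, differed by 0.82 after EPS and 0.68 without EPS. Zfand2a, an arsenite-induced protein that associates with the proteasome, differed by 0.59 after EPS and 0.62 without EPS. Akirin2, which carries proteasomes into the nucleus, differed by 0.46 after EPS and 0.59 without EPS, and the proteasome-bound deubiquitinase gene Usp14 by 0.46 and 0.33.

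The transcription factor gene Nfe2l1, known for the recovery of proteasome genes under inhibition, differed by 0.02 after EPS and 0.21 without EPS between the times. Nfe2l2, of the oxidative stress response, differed by 0.21 after EPS and 0.38 without EPS. Pomp, the chaperone of core maturation, had 0.01 after EPS and 0.16 without EPS. The ubiquitin receptor gene Adrm1 had 0.28 after EPS and 0.36 without EPS, and Vcp, the segregase that extracts substrates, 0.25 and 0.34. In the EPS comparison at 0 min the 2 genes past 1.3-fold were Ngly1 (0.54), a deglycosylase needed to activate the Nfe2l1 product, with a dim level of -2.52 after EPS and -3.06 without EPS, and the shuttle factor gene Rad23b (0.38).

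The antigen presentation genes, which share interferon control with the immunoproteasome, were mixed. Of 8 on the array 7 were measured, and Tap1, which neighbours Psmb9, was well above background on none. Irf1, a transcription factor of this response, had a level of 1.12 after EPS and 1.66 without EPS at 5 h, against 2.25 after EPS and 1.90 without EPS at 0 min. It was 2.2-fold lower at 5 h after EPS and 1.18-fold lower without EPS. The peptide transporter gene Tap2 differed between the times by -0.75 after EPS and -0.20 without EPS, and Nlrc5 by 0.31 and 0.53.

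Cell type markers differed between the times as well. The 7 muscle markers had a median difference, 5 h minus 0 min, of -0.36 after EPS and -0.16 without EPS, and their summed level on the log2 scale was 8.72 after EPS and 8.75 without EPS at 5 h, against 9.07 after EPS and 8.89 without EPS at 0 min. The 7 fibroblast markers had medians of -0.62 after EPS and -0.13 without EPS, and summed levels of 7.96 after EPS and 8.19 without EPS at 5 h, against 8.45 after EPS and 8.32 without EPS at 0 min. The summed level of the 6 leukocyte markers was 2.58 after EPS and 2.75 without EPS at 5 h, against 2.86 after EPS and 3.00 without EPS at 0 min. Cd68 differed by 0.13 after EPS and -1.84 without EPS, the endothelial marker Kdr by -0.85 and -0.09, and the neuronal marker Tubb3 by 1.05 and 0.88. The part of these cell types in the proteasome values was not tested, and in bulk tissue fewer cells of a type and less RNA per cell cannot be told apart.

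The members' mean profile, centred on each gene, was 0.07 at 5 h after EPS and 0.08 at 5 h without EPS, against -0.03 at 0 min after EPS and -0.12 at 0 min without EPS. Of 18024 other gene names measured on all arrays, 668 lay within a root mean square distance of 0.05 of it over the 4 arrays. Among the 5 nearest only Grpel1, which encodes a co-chaperone of protein import into mitochondria, has a gene symbol, with a distance of 0.0082. With 4 arrays such likeness is a description of these samples.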

How the data were processed

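Single-colour Agilent arrays, 1 per group, were used as deposited. The deposited intensities of the spots (processed signal) were made with Agilent Feature Extraction 10.7.3.1 and are corrected for background, per the file headers, on a design with positions on build mm9. The authors' deposited value table repeats these intensities: 44397 of 44397 values on each array matched within a relative tolerance of 0.0001, so it is linear and uncentred. Its column medians were 57.6 (EPS, 0 min), 75.2 (no EPS, 0 min), 69.4 (EPS, 5 h) and 64.0 (no EPS, 5 h). Per the labels' protocols the labelled RNA came from leukocytes, while titles, tissue fields and extraction protocol name engineered muscle. In the labels EPS is written out with plus as its second word, and pulse is read here.

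From the deposited intensities, log2 of the signal minus log2 of the array's 75th percentile (1093.0 for EPS and 1362.5 for no EPS at 0 min, 1491.9 for EPS and 1280.3 for no EPS at 5 h) was taken as the level. Between 112 and 141 spots an array with an outlier flag were left out. Spots of a probe were averaged, and the brightest probe stood for a gene name. A gene name was measured where over 50% of its spots were well above background on both arrays compared. Differences were not tested, as each group has 1 array, and the number of arrays limits the precision. Counts at 1.3-fold are set beside the share of all gene names past it.

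The members, lists and rules were chosen with earlier results of these data known. The rule for named genes took set members of each role. Psmd11, Psmd12, Psmd13 and Psma7 fell outside it and were named after their values were seen. All 49 members matched a RefSeq gene of the same symbol by accession, and promoter sequences are RefSeq's (GRCm38.p6). Alternatives were normexp background correction (offset 50), quantile normalization and cyclic loess (chosen after seeing the data) in limma 3.58.1 (R 4.3.3), median scaling, other filters and folds, the mean of probes and leaving out Psmc3ip. Some genes of the lists, and the counts that turn on them, are not reported here. The calculations ran in Python 3.11.15 and were tested on simulated data.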

Additional observations from a re-analysis of the deposited data

How the results depend on the processing

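Each group has 1 array, so leaving out a replicate was not possible. No paired analysis was possible because each group has 1 array. The medians and counts of the 46 members were recomputed under each alternative, and 113 of the 140 values stayed near those reported. Some of them could not move. A count of 0 at 1.3-fold is 0 at larger folds, and Psmc3ip, left out in 1 alternative, passed 1.3-fold in no comparison. Counted as near was also the change of 11 members higher without EPS to 8 with normexp. For 5 h against 0 min after EPS, 4 members higher became 0 at 2-fold and 11 with median scaling, and 1 lower became 0 at 2-fold. Without EPS, 11 higher became 2 at 1.5-fold, 0 at 2-fold, 4 with quantile normalization, 4 with cyclic loess and 21 with median scaling. The 1 lower became 0 with normexp and 2 with no background filter. The 0 members higher with EPS at 5 h became 1, the dim Psmb8, with quantile normalization, median scaling or cyclic loess. The 0 with EPS at 0 min became 1 higher with median scaling and 1 lower with no background filter. In the difference of EPS effects the 1 lower became 0 at 1.5-fold, at 2-fold, with quantile normalization, with cyclic loess and with the mean of probes. The median EPS difference at 0 min, 0.11, became 0.024 with quantile normalization and 0.0195 with cyclic loess. At 5 h the median of -0.03 became 0.051 with median scaling, which moved the time medians to 0.30 after EPS and 0.35 without EPS and those of all gene names to 0.10 and 0.11. The median difference of EPS effects, -0.11, became -0.016 with quantile normalization and -0.0069 with cyclic loess. The cause of these changes was not tested. Psmd11, Psmd5, Psmd14 and Psma5 stayed past 1.3-fold in both time comparisons under normexp, quantile normalization, median scaling, mean of probes and cyclic loess. Psmb8 stayed lower under these except without EPS with normexp (-0.37). Signal over background limits Psmb8, whose probe is dim, and leaves Psma8, Psmb9 and Psmb11 without a measured difference.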
